A study of Rattus norvegicus with 9 samples.

Results

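The Dlk1-Dio3 cluster miRNAs described here were chosen by name: every row, with either arm, of miR-127, miR-379, miR-411, miR-382, miR-541, miR-434, miR-409a, miR-410 and miR-495. Of 201 miRNAs in the table, 6 were members, from 5 of these 9 families: miR-127-3p, miR-379-5p, miR-379-3p, miR-411-5p, miR-382-5p and miR-410-3p. Exosomes are small membrane vesicles that cells release, and their small RNA was sequenced on a BGISEQ-500 from 9 libraries in 3 groups of 3. The cells were primary macrophages washed from the peritoneum of untreated rat and kept in RPMI-1640 with 10% fetal bovine serum. LPS+AS-IV cells were given 150 µM astragaloside IV, a triterpenoid saponin of the herb Astragalus, for 24 h and then lipopolysaccharide (LPS), a bacterial cell wall component that activates macrophages. LPS cells were given LPS alone. In both groups LPS was at 100 ng/ml for 6 h. Control cells had 0.1% DMSO for 24 h. Both agents were dissolved in DMSO, but its final concentration is given for Control only. Whether the replicates are separate animals or cultures is not stated, and the p-values then measure only how far these libraries spread, which may be technical spread.

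The Dlk1-Dio3 region is an imprinted domain, in which genes are expressed from 1 parental copy only. In mouse, its noncoding RNAs, among them Meg3 and the long transcripts that carry the miRNAs, come from the maternal chromosome, whereas the protein-coding genes Dlk1, Rtl1 and Dio3 come from the paternal one. Its miRNAs are best known from embryo, placenta, brain and mesenchymal cells, and miR-127 lies antisense to Rtl1 and represses it in mouse placenta. An miRNA recognises targets mainly through its seed, bases 2 to 8, so the seed and any shift of the 5′ start decide which messages it can pair with.

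The 6 mature sequences are shown because the seeds, and later the shifted ends, tell the members apart. They are from RefSeq (build GRCr8), written 5′ to 3′, with the seed in capitals.
miR-127-3p: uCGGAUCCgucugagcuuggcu
miR-379-5p: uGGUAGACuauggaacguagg
miR-379-3p: cUAUGUAAcaugguccacuaac
miR-411-5p: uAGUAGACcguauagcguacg
miR-382-5p: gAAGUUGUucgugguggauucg
miR-410-3p: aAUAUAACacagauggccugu

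All 6 lay on the plus strand of chromosome 6 within 251319 bases. miR-127-3p, at chr6:134328510-134328531, lay within the span of Rtl1. miR-379-5p (chr6:134543460-134543480), miR-379-3p (chr6:134543496-134543517) and miR-411-5p (chr6:134544604-134544624) lay within the long noncoding RNA LOC102555254. miR-382-5p (chr6:134569956-134569977) and miR-410-3p (chr6:134579808-134579828) lay within the long noncoding RNA LOC120103623. The 6 members had 6 different seeds. miR-379-5p and miR-411-5p, whose starts were 1144 bases apart, had the same base at 14 of 21 positions but no seed in common. Among 693 mature rat miRNAs in RefSeq, only miR-410-3p shared its seed, with miR-344b-1-3p.

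Between 3484099 and 9527483 reads per library were assigned to any small RNA, but only 15426 to 546599 of them were in the miRNA table. LPS+AS-IV 3 stood apart, with 8.16% of its assigned reads in that table, against 0.162% to 1.89% in the other 8 libraries. Levels are given as CPM, reads in 1000000 miRNA reads after TMM scaling, a correction for differences in composition between libraries. The limit that a count of 0 allows, 3 reads, ran from 5.99 CPM for LPS+AS-IV 3 up to 216 CPM for the shallowest library, LPS+AS-IV 1. Of the 94 miRNAs with enough reads to be tested, 50 were absent from at least 1 library. The members tested were miR-127-3p, miR-411-5p and miR-379-5p, and the other 3 had reads in fewer than 3 libraries each.

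miR-127-3p was the only member with reads in every library, and it held between 35.5% and 100% of a library's member reads. Its level was 1587, 3765 and 5.99 CPM in the LPS+AS-IV libraries, from 22, 247 and 3 reads. In the LPS libraries it was 1115, 1626 and 1491 CPM, from 31, 95 and 93 reads. In the Control libraries it was 11918, 7377 and 8467 CPM, from 552, 247 and 630 reads. Every LPS library and every LPS+AS-IV library was below every Control library, whereas LPS+AS-IV and LPS overlapped. LPS+AS-IV 2 was above all LPS libraries and LPS+AS-IV 3 was far below them, where the exact 95% Poisson interval of 3 reads spans 1.24 to 17.5 CPM. The group means were 1786 ± 1888 CPM in LPS+AS-IV, 1411 ± 265 CPM in LPS and 9254 ± 2370 CPM in Control (SD, n = 3 each). Among the miRNAs detected in a library, it ranked 49th, 36th and 77th by reads in LPS+AS-IV, 54th, 51st and 50th in LPS and 22nd, 25th and 23rd in Control.

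miR-411-5p, processed from a hairpin close to that of miR-379 in the same array, had the same order of group means on far fewer reads. It had 8, 49 and 1 reads in LPS+AS-IV (577, 747 and 2.0 CPM), 9, 0 and 0 reads in LPS (324, 0 and 0 CPM) and 107, 62 and 315 reads in Control (2310, 1852 and 4233 CPM). All 6 treated libraries were below all 3 Control libraries. Its means were 442 ± 390 CPM in LPS+AS-IV, 108 ± 187 CPM in LPS and 2798 ± 1264 CPM in Control (SD, n = 3 each).

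miR-379-5p, from the hairpin that gives the miR-379/miR-410 array its name, was scattered. It had 8, 0 and 0 reads in LPS+AS-IV (577, 0 and 0 CPM), 0, 57 and 0 reads in LPS (0, 976 and 0 CPM) and 0, 20 and 95 reads in Control (0, 597 and 1277 CPM). Each group held at least 1 library without a read, and the groups overlapped.

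**Figure D1:**
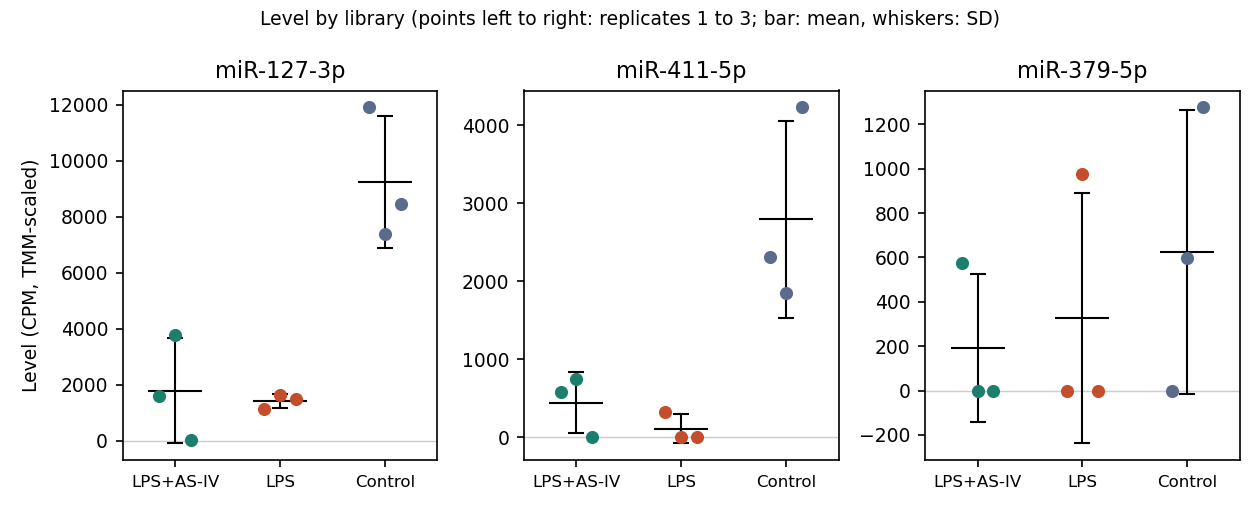
Level of the 3 tested members in CPM (linear axis, separate scale per panel) in LPS+AS-IV, LPS and Control. Points are libraries, the bar is the mean and the whiskers are the SD (n = 3), so a whisker can reach below 0. miR-127-3p and miR-411-5p are lower in all 6 treated libraries than in the 3 Control libraries, and miR-379-5p overlaps between groups.

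The question of whether LPS changed these miRNAs was asked in a quasi-likelihood fit with edgeR over all 94 tested miRNAs. miR-127-3p had a log2 fold change of -2.71 (SE 1.34) in LPS against Control, with an adjusted p of 0.662 and an unadjusted p of 0.0626. miR-411-5p had -4.74 (SE 2.69, edgeR adjusted p = 0.779), and miR-379-5p had -0.93 (SE 3.11, edgeR adjusted p = 0.964). None of the 3 passed the threshold of adjusted p under 0.05. Over all tested miRNAs, 1.06% were called higher and 0% lower in this comparison. At an unadjusted p under 0.05, 2 miRNAs (2.13%) were higher and 4 (4.26%) lower, none of them a member. miR-127-3p and miR-411-5p were 2 of 3 tested members with all LPS libraries below all Control libraries, against 11.7% of all tested miRNAs (11 of 94), and no tested member had the opposite order, against 7.45%. The fitted log2 change was below 0 for 3 of 3 tested members, against 52.1% of all tested miRNAs. Their median was -2.71, against -0.04 over all tested miRNAs.

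The comparison of LPS+AS-IV with LPS asks whether astragaloside IV altered the state reached with LPS. miR-127-3p had a log2 fold change of 0.34 (SE 1.26, edgeR adjusted p = 0.963). miR-411-5p had 2.07 (SE 2.42) and miR-379-5p -0.85 (SE 3.17), both with an edgeR adjusted p of 0.963. No member passed, and over all tested miRNAs 0% were called in either direction by edgeR, with 1 higher (1.06%) and 2 lower (2.13%) at an unadjusted p under 0.05. By DESeq2, 1 miRNA was called, which was no member. None of the 3 tested members had groups that did not overlap, against 4.26% of all tested miRNAs higher and 3.19% lower. The fitted change was below 0 for 1 of 3 tested members, against 39.4% of all, and the members' median was 0.34, against 0.19 over all. The sign for miR-127-3p turned when LPS+AS-IV 2 was left out, to a log2 fold change of -0.93, and when LPS 1 was left out, to -0.02. Without LPS+AS-IV 3 it was 0.76.

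In LPS+AS-IV against Control, miR-127-3p had a log2 fold change of -2.37 (SE 1.32), with an adjusted p of 0.835 and an unadjusted p of 0.0943 in edgeR. miR-411-5p had -2.67 (SE 2.43) and miR-379-5p -1.79 (SE 3.23), both with an edgeR adjusted p of 0.981. No member passed, where 1.06% of all tested miRNAs were called higher and 1.06% lower. At an unadjusted p under 0.05, 2.13% were higher and 1.06% lower, with no member among them. miR-127-3p and miR-411-5p again did not overlap between the groups, against 5.32% of all tested miRNAs lower and 5.32% higher. The fitted change was below 0 for 3 of 3 tested members, against 42.6% of all. The members' median was -2.37, against 0.21 over all. This comparison uses the same Control libraries as LPS against Control, so the pair of results is not independent. Without LPS+AS-IV 3, miR-127-3p was at -1.88 (SE 0.87, edgeR adjusted p = 0.697) and miR-411-5p at -2.15 on the log2 scale.

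**Figure D2:**
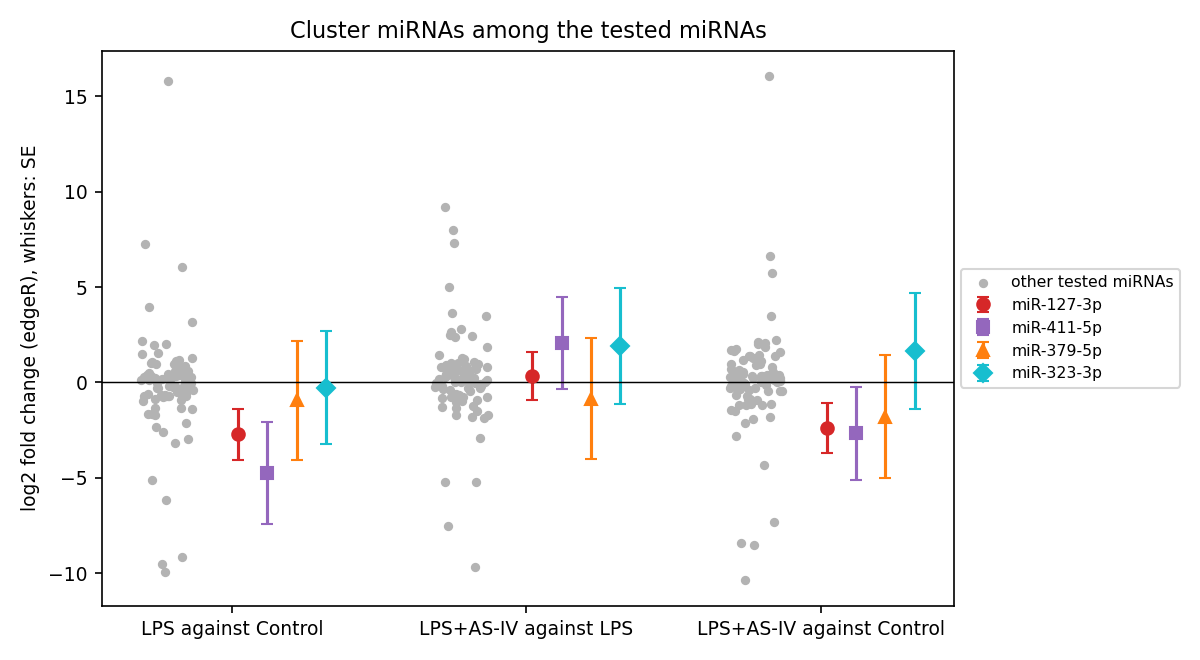
log2 fold changes from edgeR in the 3 comparisons for miR-127-3p, miR-411-5p, miR-379-5p and miR-323-3p, a further miRNA of the cluster, with SE whiskers. Grey points are the other tested miRNAs without error bars. miR-127-3p is at -2.71, 0.34 and -2.37 from left to right, and no cluster miRNA passed the test.

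The members that were not tested were seen in few libraries. Their reads here are those of the mature rows, without tags that the authors gave to a hairpin. miR-410-3p, from the last hairpin of the array that miR-379 begins, had no read in LPS+AS-IV or in LPS and 27, 35 and 0 reads in Control (583, 1045 and 0 CPM). Against the mean of the 3-read floors of the libraries, its mean was at least 6.07-fold lower in LPS+AS-IV and at least 7.85-fold lower in LPS than in Control. miR-379-3p, the other arm of the miR-379 hairpin, had 26 reads in Control 1 and none elsewhere, Control 2 and Control 3 included. Its Control mean of 187 CPM was 2.09 times the mean floor of LPS+AS-IV and 2.71 times that of LPS. That mean was below the floor of LPS+AS-IV 1 (216 CPM), so no decrease can be read from it there. miR-382-5p went the other way, with 24, 0 and 1 reads in LPS+AS-IV (1731, 0 and 2.0 CPM) and none in LPS or Control. That was at least 8.36-fold higher than the floor in LPS and at least 8.90-fold higher than that in Control, but it came from LPS+AS-IV 1, the library with fewest miRNA reads. These folds leave out the spread of the group that had reads. A fold that rests on 1 or 2 libraries has no test here.

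miR-541, miR-434 and miR-495 had no tag in any library, with 0 or with 1 mismatch. miR-409a had no row in the table and only tags that the authors gave to its hairpin, 15 reads of the 5p arm in Control 2 and 2 reads of the 3p arm in Control 3. Sequence from the miR-409a hairpin was nevertheless counted under another name. The main tag counted as miR-409b is shown with the 2 RefSeq sequences it lies between, because the name and the strand differ, with bases 2 to 8 in capitals.
tag counted as miR-409b: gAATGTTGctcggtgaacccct
miR-409a-3p: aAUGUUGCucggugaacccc
miR-409b: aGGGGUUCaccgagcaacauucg
The tag holds all of miR-409a-3p, starts 1 base earlier and matches the plus strand of the miR-409 hairpin, whereas RefSeq places miR-409b (chr6:134579229-134579251) on the minus strand opposite miR-409a-3p (chr6:134579231-134579250). Tags with the miR-409a-3p sequence, whatever their name, had 0, 2 and 1 reads in LPS+AS-IV, none in LPS and 71, 0 and 3 reads in Control. Nearly all of them were thus in Control 1.

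**Figure D3:**
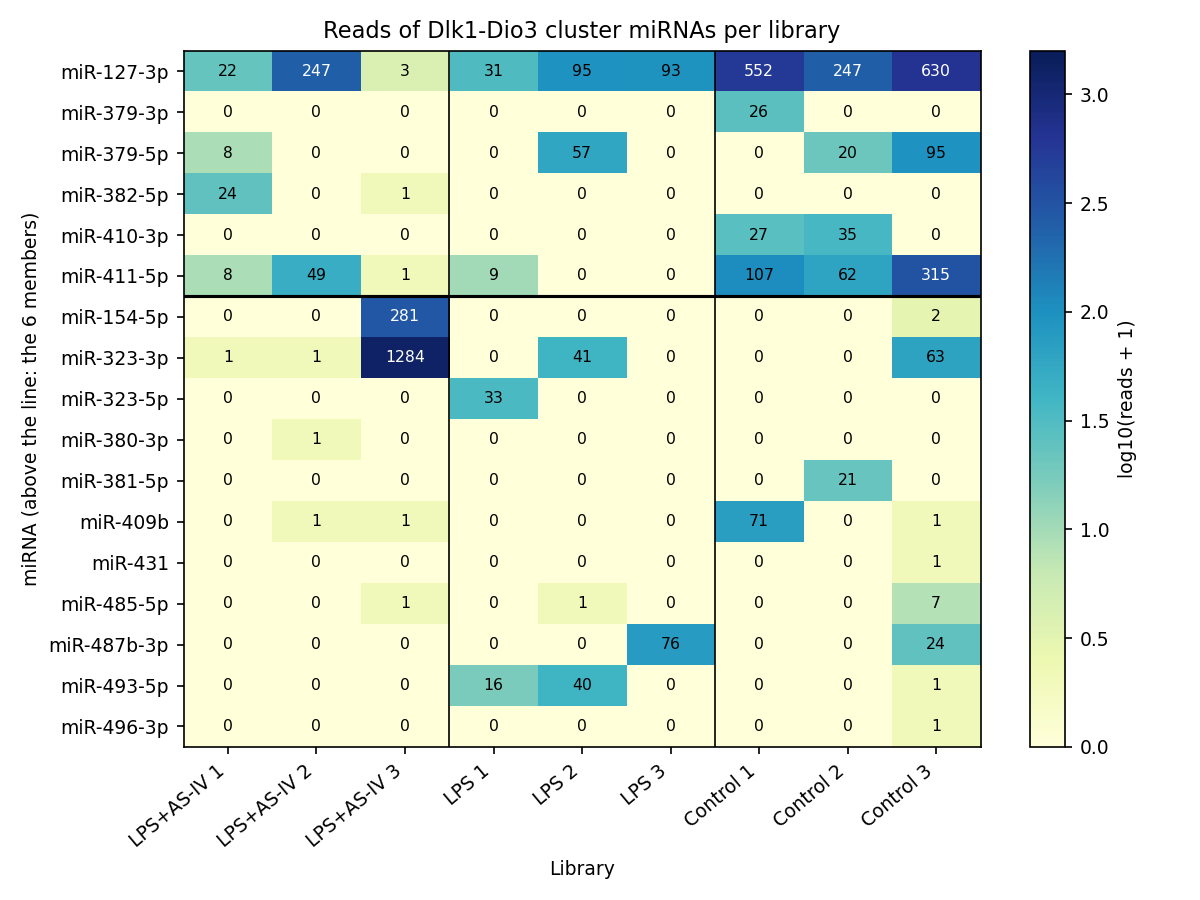
Reads in the table (numbers in the cells, colour on a log10 scale of reads + 1) for the 6 members, above the line, and 11 further cluster miRNAs, below it, in the LPS+AS-IV, LPS and Control libraries. Only miR-127-3p has reads in all 9 libraries. The 1284 reads of miR-323-3p in LPS+AS-IV 3 are the highest count. Counts are not scaled for depth, and that library has the most miRNA reads (546599).

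The 6 members together took 0.402%, 0.430% and 0.000915% of the miRNA reads in LPS+AS-IV. Their share was 0.157%, 0.231% and 0.151% in LPS and 1.69%, 1.18% and 1.38% in Control. The 95% Wilson intervals span 0.000391% to 0.515% over the LPS+AS-IV libraries, 0.115% to 0.271% over the LPS libraries and 1.06% to 1.82% over the Control libraries. These intervals and the read floors cover counting error only. The means were 0.278% ± 0.240 in LPS+AS-IV, 0.180% ± 0.0447 in LPS and 1.41% ± 0.256 in Control (SD, n = 3 each). All 6 treated libraries were below all 3 Control libraries by this share and also relative to all assigned reads. The members had 6.51, 32.5 and 0.746 reads in 1000000 assigned reads in LPS+AS-IV, 4.30, 43.6 and 10.4 in LPS and 98.6, 66.8 and 126.6 in Control. The further cluster rows took 0.287% of the miRNA reads in LPS+AS-IV 3, so the members' share there is not that of the cluster. In bulk vesicle RNA, fewer vesicles of a kind and fewer copies per vesicle cannot be told apart.

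The further miRNAs of the cluster showed no common order of the groups. Of 49 other names of the domain, 11 had a row, 5 of them with reads in 1 library only. Their summed share was 0.0992% ± 0.162 in LPS+AS-IV, 0.147% ± 0.0394 in LPS and 0.123% ± 0.0508 in Control (SD, n = 3 each), so the groups overlapped. miR-323-3p, the only one tested, had 1, 1 and 1284 reads in LPS+AS-IV, 0, 41 and 0 in LPS and 0, 0 and 63 in Control. LPS against Control gave it a log2 fold change of -0.27 (SE 2.97), LPS+AS-IV against LPS one of 1.91 (SE 3.06) and LPS+AS-IV against Control one of 1.64 (SE 3.03), none called by edgeR. miR-154-5p was likewise high in LPS+AS-IV 3, with 281 reads there, none in the other 5 treated libraries and 2 in Control 3. In that library, which had the most miRNA reads, miR-323-3p was at 2565 CPM and miR-154-5p at 561 CPM. miR-127-3p had 3 reads there (5.99 CPM). miR-487b-3p had no read in LPS+AS-IV, 76 in LPS 3 and 24 in Control 3. miR-493-5p had none in LPS+AS-IV, 16 and 40 in LPS 1 and LPS 2 and 1 in Control 3. miR-323-5p had 33 reads in LPS 1 and miR-381-5p had 21 in Control 2, and neither had any elsewhere. miR-380-3p, miR-431 and miR-496-3p had 1 read each in all, and miR-485-5p had 9, of which 7 were in Control 3. With the 17 cluster rows summed, members included, LPS+AS-IV was at 3140 to 4558 CPM, LPS at 2710 to 4006 CPM and Control at 11499 to 16905 CPM. Most of the Control sum was miR-127-3p, at 7377 to 11918 CPM, so its order is not one of the further miRNAs. The sum leaves out miR-3578, a row of the domain that was on neither list. Of 5 miRNA names from other imprinted domains (miR-296, miR-298, miR-335, miR-675 and miR-483), none had a row.

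The tags behind the rows were compared with the RefSeq hairpins, since the table holds only tags that the authors gave to a mature miRNA. For miR-411-5p, most reads lay outside the table. Both forms are shown as DNA letters with bases 2 to 8 in capitals, which are the seed each would carry.
RefSeq start: tAGTAGACcgtatagcgtacg
1 base earlier: aTAGTAGAccgtatagcgtacg
The earlier form matches the hairpin in every base and had 902 reads in 6 libraries, against 551 reads of the RefSeq form, but the authors' files gave it to the hairpin with 1 mismatch. Its bases 2 to 8 were the seed of none of the 693 mature rat miRNAs. With a form of it that ends 1 base sooner, reads that started earlier were 955 of 1517, or 63.0%. By library they were 21 of 29 (72.4%), 149 of 199 (74.9%) and 0 of 2 in LPS+AS-IV, 13 of 23 (56.5%) in LPS 1, and 161 of 272 (59.2%), 166 of 229 (72.5%) and 445 of 763 (58.3%) in Control. The Wilson interval of LPS 1 ran from 36.8% to 74.4% and held the share of every Control library. That of LPS+AS-IV 2 (68.4% to 80.4%) lay above those of Control 1 (53.3% to 64.9%) and Control 3 (54.8% to 61.8%) and overlapped that of Control 2 (66.4% to 77.9%), which itself lay above both. The Control libraries thus differed among themselves by more than counting error, and the groups were not tested. Of 97 miRNAs with at least 100 reads that could be placed without a mismatch in a RefSeq hairpin, 3 had over 50% of the placed reads starting earlier: miR-214-3p with 100%, miR-411-5p with 63.4% and miR-29a-3p with 63.2%. The tags counted as miR-379-3p started 1 base later than in RefSeq, so that their bases 2 to 8 were the seed of miR-411-3p, the other arm of the neighbouring hairpin.

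miR-127-3p kept its 5′ start in all its reads and varied at the 3′ end. The 5 tags with at least 100 reads are shown, with bases that the hairpin does not encode in capitals.
RefSeq end, 1726 reads: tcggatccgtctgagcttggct
1 base shorter, 432 reads: tcggatccgtctgagcttggc
1 base added, 300 reads: tcggatccgtctgagcttggctT
last base not in the hairpin, 208 reads: tcggatccgtctgagcttggcA
1 base added, 122 reads: tcggatccgtctgagcttggctA
The RefSeq sequence was 55.4% of the 3113 reads that the authors gave to the mature miRNA or its hairpin. The shorter form had 95 reads in LPS+AS-IV 2 and 195, 83 and 59 reads in Control 1, 2 and 3, and none in the other libraries, LPS included. LPS had 60, 98 and 94 miR-127-3p reads in all by that count, against 1057, 415 and 979 in Control. Reads with a 3′ end outside the hairpin were 896 in all.

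**Figure D4:**
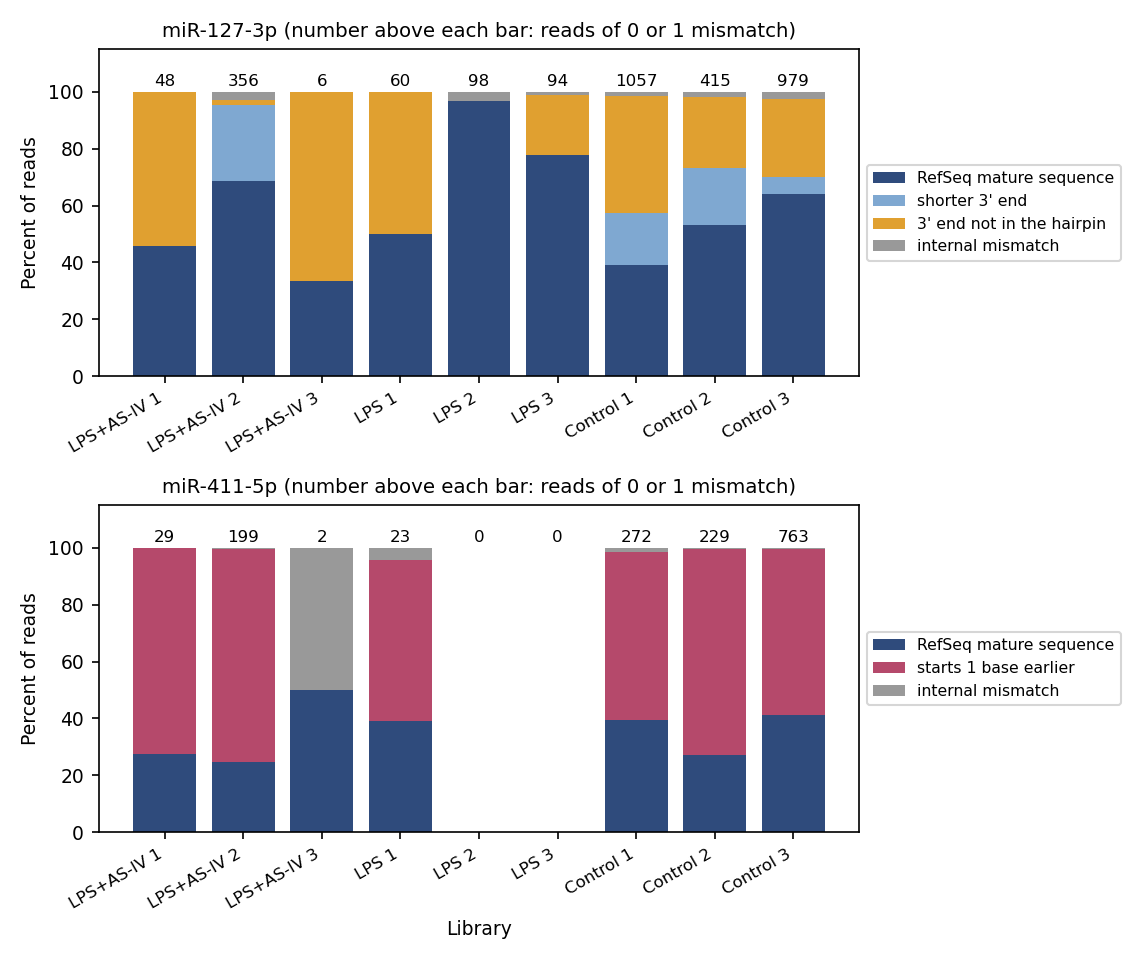
Share of miR-127-3p reads (top) and miR-411-5p reads (bottom) by form, in percent of the reads with up to 1 mismatch, whose number stands above each bar, in the LPS+AS-IV, LPS and Control libraries. The miR-411-5p form that starts 1 base earlier is the larger part in all libraries with more than 2 reads, and miR-127-3p differs only at its 3′ end or by internal mismatches. LPS 2 and LPS 3 have no miR-411-5p read.

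All tags given to a mature miRNA or its hairpin were also counted, which adds these forms. miR-127-3p then had 1506 ± 1344 CPM in LPS+AS-IV, 1043 ± 260 CPM in LPS and 9237 ± 3040 CPM in Control (SD, n = 3 each). miR-411-5p had 870 ± 767 CPM in LPS+AS-IV, 171 ± 296 CPM in LPS and 4433 ± 1420 CPM in Control. The log2 fold change in LPS against Control was -3.15 (SE 1.25, edgeR adjusted p = 0.568) for miR-127-3p and -4.74 (SE 2.21, edgeR adjusted p = 0.596) for miR-411-5p. Neither passed.

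The miRNAs most like miR-127-3p were sought by Pearson's r of log2(CPM + 1) over the 9 libraries, which share their depth and scaling. The 5 highest of 90 tested miRNAs outside the cluster were miR-151-5p (r = 0.900), let-7f-5p (0.859), miR-23a-3p (0.759), miR-146a-5p (0.749) and miR-486 (0.724), against a median of 0.0907. In the cluster, r was 0.612 for miR-411-5p, 0.336 for miR-379-5p and -0.503 for miR-323-3p. The 9 libraries include LPS+AS-IV 3, with 3 reads of miR-127-3p, and r is a description of these libraries. miR-151-5p had 625 ± 608 CPM in LPS+AS-IV, 1051 ± 828 CPM in LPS and 2675 ± 398 CPM in Control (SD, n = 3 each).

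Markers of blood, endothelial, mesenchymal, liver and neural cells were read beside the members. Their values are from the mature rows only, so tags that the authors gave to a hairpin are left out. Of 6 myeloid markers 5 had a row, and their sum was 7837 to 75458 CPM in LPS+AS-IV, 12378 to 36236 CPM in LPS and 21489 to 44950 CPM in Control. In these rows, most of that sum was miR-146a-5p, which is not restricted to myeloid cells, with 34718 ± 29518 CPM in LPS+AS-IV, 20601 ± 7331 CPM in LPS and 27353 ± 11989 CPM in Control (SD, n = 3 each). With tags given to a hairpin added, miR-21-5p, on the same list, had 30399 reads over the libraries and miR-146a-5p had 28529. By its row, miR-155-5p, also on the list, was at 5337, 3430 and 0 CPM in LPS+AS-IV. It was at 8168, 34.2 and 3752 CPM in LPS and at 0, 777 and 0 CPM in Control, so the groups overlapped. Its edgeR log2 fold change against Control was 3.96 (SE 2.59) in LPS and 3.51 (SE 2.54) in LPS+AS-IV. Of 4 tested myeloid markers, 2 were fitted higher and 2 lower in LPS against Control. miR-223-3p, the most specific myeloid marker on the list, had levels of 0, 1509 and 1886 CPM in LPS+AS-IV. Its LPS levels were 0, 0 and 3511 CPM and its Control levels 777, 329 and 1519 CPM. By its row, the labelled macrophage source thus had this marker in 6 of 9 libraries. Of 7 mesenchymal markers outside the cluster 5 had a row, summing to 649 to 8248 CPM in LPS+AS-IV, 144 to 2551 CPM in LPS and 1478 to 2688 CPM in Control. By their rows, miR-143-3p and miR-199a-5p, which mark mesenchymal cells, were at 0 in LPS+AS-IV and miR-145-5p at 0 in LPS. Both tested markers overlapped between all groups. With tags given to a hairpin added, miR-143-3p had 1637 reads over the libraries. By the same count miR-214-3p, a marker without a row, had 563. A row at 0 or a missing row is thus not absence of the miRNA. The summed endothelial and the summed erythroid markers were lower in every LPS library than in every Control library. This was true of miR-126a-3p and of miR-486 but not of the other markers on the 2 lists. Over all tested miRNAs, 11.7% had that order and 7.45% the opposite one. The endothelial pair summed to 4616 to 12866 CPM in LPS+AS-IV, 1924 to 5307 CPM in LPS and 6870 to 12608 CPM in Control, and miR-126a-5p was at 0 in LPS+AS-IV and Control. The 3 erythroid markers summed to 32165 to 38663 CPM in LPS+AS-IV, 28283 to 36378 CPM in LPS and 37514 to 48569 CPM in Control, with miR-144-3p at 0 in LPS. The liver markers, both present, summed higher in every treated library than in every Control library through miR-122-5p, whereas miR-192-5p overlapped between groups. Among all tested miRNAs, 7.45% were higher without overlap in LPS against Control and 5.32% in LPS+AS-IV against Control. Their sum was 5074 to 6203 CPM in LPS+AS-IV, 3595 to 9355 CPM in LPS and 1451 to 3238 CPM in Control. The lymphocyte marker miR-150-5p had 15795 to 44357 CPM in LPS+AS-IV, 23388 to 30785 CPM in LPS and 25519 to 37066 CPM in Control. Of 4 neural markers 3 had a row, summing to 0 to 2831 CPM in LPS+AS-IV, 0 to 1106 CPM in LPS and 860 to 2210 CPM in Control, with miR-128-3p at 0 in LPS. No marker of these lists was called in the main edgeR fit in any comparison. The DESeq2 test called miR-128-3p, lower in LPS against Control and higher in LPS+AS-IV against LPS. miR-128-3p was at 0, 0 and 2201 CPM in LPS+AS-IV, so the call as higher rests on LPS+AS-IV 3 alone. miR-129-5p, the other tested neural marker, had the opposite signs in edgeR and was not called. Its log2 fold change was 1.05 in LPS against Control and -1.72 in LPS+AS-IV against LPS. With LPS 1 left out, edgeR called miR-486 lower in LPS against Control. The part of the markers in the members' levels was not tested.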

How the data were processed

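The deposited table held whole-number read counts per mature miRNA and library, per the file headers, without normalization. The authors' files of single libraries held counts of tags of 15 to 45 nt, each with 1 assignment and a score, per the file headers. The members' table counts equalled the sum of their mature tags. The deposited column headed exp held counts that never exceeded the reads, and served only as an alternative, since no source says how they were made. Bowtie2 and Rnor_6.0 are named in the submitters' processing notes, without a version or role. No miRBase release is named.

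Counts were tested with edgeR 4.0.16 (R 4.3.3, limma 3.58.1): TMM factors, filterByExpr, 1 quasi-likelihood fit of 9 libraries by group, and Benjamini-Hochberg adjustment over 94 miRNAs at 0.05. DESeq2 1.42.0 was an alternative. The steps were also run on simulated counts with equal library sizes and a smaller spread than here. That run does not show what could be detected in these libraries. SE is the log2 fold change divided by the square root of F. Poisson and Wilson intervals are at 95%. Tags of at least 18 nt were placed in RefSeq hairpins (GRCr8). Every member and every cluster miRNA with a read was named, besides the 5 tested miRNAs most correlated with miR-127-3p and the marker lists. The members and lists were chosen with earlier results of these data known. Replicate libraries differed by more than counting noise and were each counted as 1 sample.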

Additional observations from a re-analysis of the deposited data

How the results depend on the processing

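No member was called in any of the alternatives run, so each change here is one of size or sign. miR-127-3p kept its sign under all of them in LPS against Control (-3.15 to -2.28, lowest adjusted p 0.124 in edgeR when LPS+AS-IV 3 was left out), as well as in LPS+AS-IV against Control (-3.62 to -1.88, lowest adjusted p 0.295). In LPS+AS-IV against LPS its sign turned to -0.21 with the replicate block and to -0.45 with all assigned reads as library size, an alternative chosen after seeing the data, and leaving out 1 library at a time gave -0.93 to 0.76. miR-411-5p kept its sign in all 3 comparisons. miR-379-5p turned to 0.093 with assigned reads as library size and ranged from -8.86 to 0.20 with 1 library left out in LPS against Control, and from -8.19 to 7.01 in LPS+AS-IV against LPS. The cause of these turns was not tested.

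Over all miRNAs, 1 was called in LPS against Control. This became 2 with library totals, without the filter, with the replicate block and with the exp column, 3 with the DESeq2 test, 0 with each tag given to 1 miRNA, and 1 to 3 with 1 library left out. In LPS+AS-IV against LPS, 0 became 1 with the DESeq2 test, without the filter and with the block, and ranged from 0 to 1 with 1 library left out. In LPS+AS-IV against Control, 2 became 0 with each tag given to 1 miRNA and 2 to 3 with 1 library left out. The replicate numbers were not taken to pair the libraries, since the correlation of same-numbered libraries' deviations lay between -0.085 and 0.168. With the block, miR-127-3p was at -2.72 in LPS against Control and -2.93 in LPS+AS-IV against Control. In these data the number of libraries and the shallow miRNA reads, with a biological coefficient of variation of 1.42, limit what could be detected.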

Other observations

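Reads of further cluster miRNAs lay partly outside their own rows. The sequence of miR-369-5p, another miRNA of the domain, was counted as miR-3578 in some libraries and given to the miR-369-5p or miR-3578 hairpin in others. Whatever its name, it had reads in all 9 libraries: 16, 38 and 5 in LPS+AS-IV, 16, 78 and 1 in LPS and 65, 49 and 126 in Control. These tags match the plus strand of the miR-369 hairpin. A tag of miR-370-3p had 71 reads in Control 2 and none elsewhere, and the authors gave it to the hairpin. A form of miR-323-3p that starts 1 base earlier had 10, 0 and 789 reads in LPS+AS-IV, none in LPS and 0, 0 and 1 in Control, also outside the table. None of these was tested, and they were looked at after the tags had been seen.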
